A study of Mus musculus with 7 samples.

Results

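The kainate receptor subunit genes Grik1, Grik2, Grik3, Grik4 and Grik5 were examined for binding of Fos in mouse hippocampus, by counting chromatin immunoprecipitation (ChIP-seq) peaks within 10 kb of each gene. The members are the complete gene family, 5 of the 21887 protein-coding genes in the gene table used, taken by name. Their windows, each gene span with 10 kb on both sides, cover 1908 kb of the mouse genome build GRCm38, which is also called mm10. After kainic acid, 24, 79 and 44 peaks lay in these windows in replicates 1, 2 and 3, and after saline 0, 2 and 0. Grik4 held the most in replicates 2 and 3 and Grik2 in replicate 1. By regions found in at least 2 kainic acid lists, Grik4 was denser than 91.3% of genes of 100 kb or longer, and Grik1, Grik2 and Grik3 lay near or below the middle of such genes. The Grik4 value rests on 21 such regions, of which 7 were left without replicate 2 or without replicate 3. Those of Grik2 went from 9 to 6 and 7, and the fall over all genes was not computed. By the peaks of replicate 1 alone, Grik4 was denser than 77.4% of genes of 100 kb or longer.

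All animals were wild-type C57BL/6J mice of 2 months. The control group received saline (PBS), and the other group received kainic acid at 10 mg/kg, injected into the peritoneum in 2 doses 30 min apart. Mice whose seizures reached level 4 were taken 1 hour after the first of these doses, so the kainic acid group was selected by its response. Each group has 3 immunoprecipitated libraries made with a monoclonal anti-Fos antibody, and the 1 input library, from a saline sample, has no peak list among the files used here. The labels do not give the number of animals in a library, and p-values over libraries therefore measure the spread between these libraries, which may be technical. Whole hippocampus was used, so more cells with bound Fos and more Fos bound per cell cannot be told apart. Peak lists hold no expression values, and the tissue label was not checked against marker genes.

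Kainate receptors are glutamate-gated cation channels built of several subunits. The products of Grik1, Grik2 and Grik3 (GluK1, GluK2 and GluK3) can form channels by themselves. Those of Grik4 and Grik5 (GluK4 and GluK5) bind kainate with higher affinity but need a partner from the first group to make a working channel. In the hippocampus these receptors are best known from the synapses between mossy fibers of dentate granule cells and pyramidal cells of field CA3, where they act on both sides of the synapse. Kainic acid, the drug used here, activates them, and mice without GluK2 are known to resist its seizures. Fos is made within an hour of strong neuronal activity and binds DNA with a Jun protein as AP-1, mostly at enhancers.

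The lists differ widely in length. The kainic acid lists held 15009, 63197 and 29650 peaks in replicates 1, 2 and 3, and the saline lists 7, 3277 and 2. Read totals do not come with them, so the depth is unknown. Any count near a gene is bounded by the length of its list, and the saline lists of 7 and 2 peaks could show almost nothing at any gene.

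The promoters that bear on these data belong to Grik3 and Grik2, the only members whose RefSeq start site had a peak edge within 1 kb, and in both cases the peak was called in kainic acid replicate 2 alone. The 250 bases before each start site are printed 5′ to 3′ on the strand of the gene, from RefSeq's GRCm38.p6 sequence. Capitals mark the 37 bases that lie inside the peak of kainic acid replicate 2. The peak starts at base 125490659, runs on across the start site to 125490980 and had a fold of 3.49.
Grik3 (chr4:125490446-125490695, plus strand): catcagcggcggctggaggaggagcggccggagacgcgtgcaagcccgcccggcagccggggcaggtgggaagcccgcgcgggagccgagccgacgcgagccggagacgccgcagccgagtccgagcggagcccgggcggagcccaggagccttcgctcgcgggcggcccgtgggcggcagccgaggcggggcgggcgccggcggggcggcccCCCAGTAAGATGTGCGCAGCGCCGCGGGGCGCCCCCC
Grik2 (chr10:49788755-49789004, minus strand): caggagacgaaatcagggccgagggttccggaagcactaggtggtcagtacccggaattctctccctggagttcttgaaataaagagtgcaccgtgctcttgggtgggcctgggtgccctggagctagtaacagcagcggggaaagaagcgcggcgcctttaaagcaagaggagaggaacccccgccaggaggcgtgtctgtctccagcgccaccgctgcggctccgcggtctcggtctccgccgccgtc
At Grik2 the peak, chr10:49788361-49788674 with a fold of 4.39, began 80 bp after the start site, so no base of the printed stretch is in capitals. Start sites were given for Grik2, Grik3, Grik4 and Grik5. In the windows from 250 bases before the start to 50 after it, searched in these 4 genes, the AP-1 letters TGANTCA and the cyclic AMP response element TGACGTCA were absent. Both motifs read the same on either strand, and neither contains the other. The absence says only that these letters are not in these windows. They were present in 7.81% and 1.79% of 32851 promoter windows of the same length.

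Fos peaks were called near each of the 5 genes in every kainic acid list. Grik1 had 2, 3 and 3 peaks within 10 kb in kainic acid replicates 1, 2 and 3. Grik2 had 10, 13 and 10. Grik3 had 2, 9 and 3. The 3 genes for subunits that form channels by themselves had no peak in any saline list. Grik4 had 7, 45 and 25 peaks after kainic acid and 0, 1 and 0 after saline. Grik5 had 3, 9 and 3 after kainic acid and 0, 1 and 0 after saline. At each of the 5 genes the lowest kainic acid list was above the highest saline list, so the groups did not overlap.

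**Figure D1:**
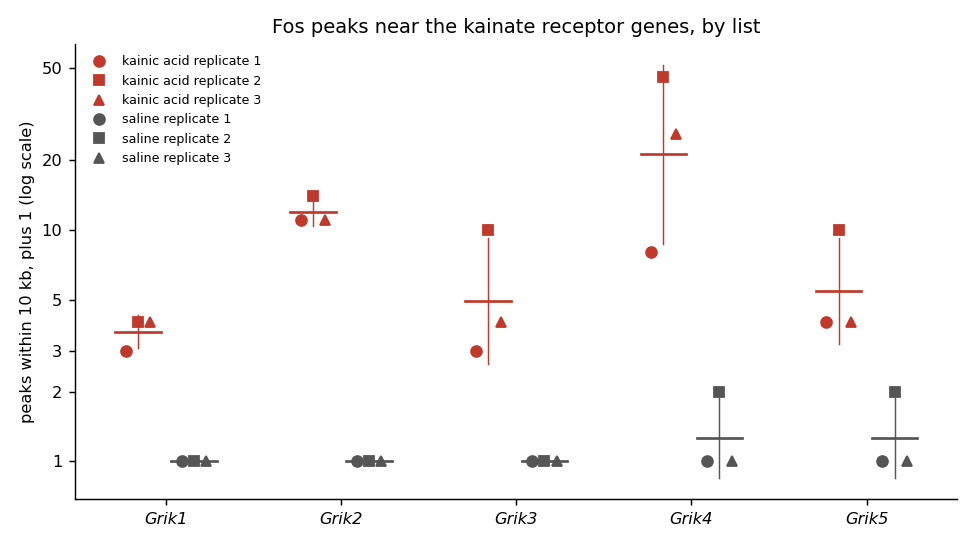
Number of Fos peaks within 10 kb of each kainate receptor gene plus 1, on a log scale, for the 3 kainic acid lists (red) and the 3 saline lists (grey); horizontal bars are means and vertical lines 1 SD of log10(number + 1), n = 3. All kainic acid points lie above all saline points at each gene, and Grik4 has both the highest single count (45 peaks, replicate 2) and the widest spread.

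On the scale of log10(number of peaks + 1), the difference between kainic acid and saline was 0.56 at Grik1, 1.08 at Grik2, 0.69 at Grik3, 1.23 at Grik4 and 0.63 at Grik5. The kainic acid means were 0.56 ± 0.072, 1.08 ± 0.060, 0.69 ± 0.27, 1.33 ± 0.39 and 0.73 ± 0.23 (SD, n = 3), in the same order. The saline means were 0 at Grik1, Grik2 and Grik3 and 0.10 ± 0.17 (SD, n = 3) at Grik4 and at Grik5. At all 5 genes this was larger than the SD in either group. For each gene the two-sided exact permutation test over 20 assignments gave p = 0.1, the smallest that 3 libraries against 3 allow, so none can pass 0.05. Among all protein-coding genes, 20.7% had more peaks in every kainic acid list than in every saline list. Among the 2429 of 100 kb or longer, to which all members but Grik5 belong, it was 62.4%. A long gene with separated groups is therefore common in these data.

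Set against the length of each list, the difference is not resolved. The 5 genes took 0.160%, 0.125% and 0.148% of the peaks of kainic acid replicates 1, 2 and 3, a mean of 0.144% ± 0.018 (SD, n = 3). In saline replicate 2 they took 2 of 3277 peaks, 0.0610%, with a 95% Clopper-Pearson interval of 0.00739% to 0.220%, which includes the 3 kainic acid shares. This interval covers counting error only. By the same interval, 0 of 7 peaks in saline replicate 1 allow a share of up to 41.0%, and 0 of 2 in saline replicate 3 a share of up to 84.2%.

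Peaks of the 6 lists that overlapped by at least 1 bp were merged into regions. The windows of the 5 genes held 84 regions with a kainic acid peak. A peak from every kainic acid replicate was present in 18 of them, from just 2 replicates in 19, and from a single replicate in 47. Those 37 with 2 or more replicates are called shared regions here. They made up 44.0% of the 84, against 40.3% of all 66683 regions with a kainic acid peak in the genome. The 18 in all 3 lists made up 21.4%, against 17.9% in the genome. Support by replicates was thus close to the background. The members differed among themselves: 2 of 2 regions were shared at Grik1, 9 of 16 at Grik2, 2 of 11 at Grik3, 21 of 46 at Grik4 and 3 of 9 at Grik5. All 5 genes had a shared region within 10 kb, against 40.0% of all protein-coding genes and 81.6% of those of 100 kb or longer. They also all had a region in all 3 lists, against 23.9% and 64.3%.

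**Figure D2:**
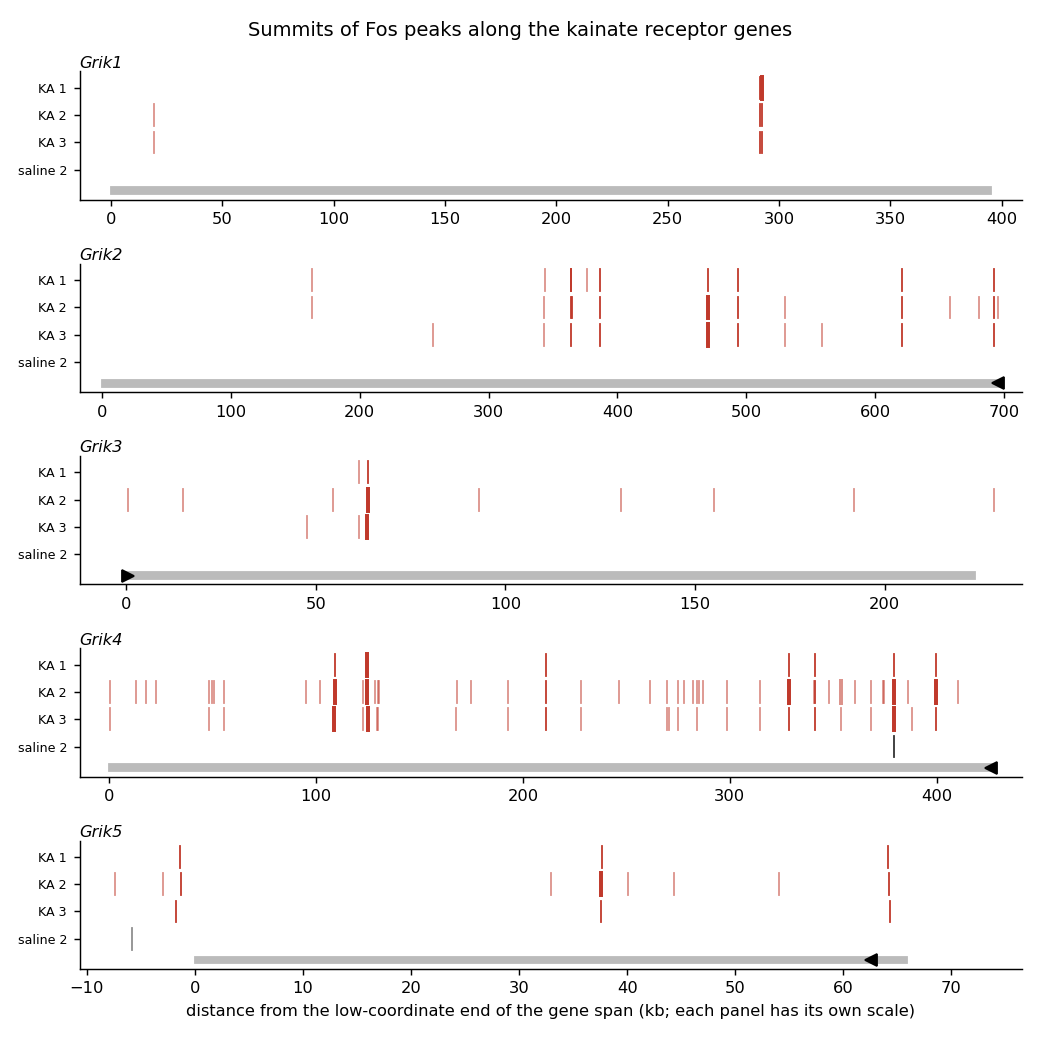
Summits of Fos peaks along each gene, as distance in kb from the low-coordinate end of the gene span (grey bar, each panel with its own scale), with 1 row for each kainic acid (KA) list and 1 for saline replicate 2; the arrowhead marks the start site and direction of transcription where given, dark lines belong to regions in all 3 kainic acid lists, and thick lines to the 10% of peaks with the highest fold in their list. Grik4 shows peaks along most of its span, mainly in replicates 2 and 3, while Grik1 shows 2 positions.

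Grik1 encodes GluK1, which is known from inhibitory interneurons of the hippocampus. The gene spans chr16:87895901-88290863 (gene ID 14805, 395 kb). Its region in all 3 lists, chr16:88187366-88188530, lay inside the gene span, 292 kb from the low-coordinate end. It had folds of 7.14, 7.64 and 6.47 in kainic acid replicates 1, 2 and 3. A fold is the authors' own ratio of a peak to its local background and is not scaled between libraries, so it is ranked here within its list: 8.06%, 12.2% and 10.8% of the peaks of these lists had a higher fold. All 3 lists placed it near their strongest 10%. It held 6 peaks, because each list split it into 2 adjoining ones. The other region, chr16:87915249-87915675, was called in replicates 2 and 3 only and ranked low, with 87.5% and 75.4% of peaks above it. It lies in a part of Grik1 that also holds the long noncoding RNA genes 4930590A17Rik and LOC115486002. The gene table has no exons, so positions inside a gene are given without saying exon or intron.

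Grik2 encodes GluK2, the subunit most closely tied to kainate seizures. It is the longest member, at chr10:49093680-49790161 (gene ID 14806, 696 kb), and is transcribed from its high-coordinate end. Of its 9 shared regions, 6 were in all 3 lists, and all lay inside the gene span. The highest ranked was chr10:49563269-49564113, 225 kb after the start site, with folds of 5.21, 9.03 and 6.79. Next was chr10:49457088-49458487, 331 kb after the start site, with folds of 5.19, 5.44 and 6.47. These were the only shared regions of Grik2 with a mean rank better than 50%, at 14.5% ± 11.1 and 22.6% ± 10.3 of peaks with a higher fold (SD, n = 3).

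The other 4 regions of Grik2 in all 3 lists were of middle or low rank. The region chr10:49785525-49786289 lay 2.99 kb after the start site, the nearest shared region to a Grik2 start, and had folds of 3.72, 4.18 and 4.43. The region chr10:49713785-49714744, 74.6 kb after it, had 4.85, 4.35 and 3.27. Further in, chr10:49586640-49587333 had 3.73, 3.97 and 3.88. At chr10:49480183-49480634 the lists disagreed in rank, with folds of 5.11, 3.68 and 2.44 and 29.2%, 75.1% and 98.6% of peaks above it. Of the 9 shared regions, 7 lay on the side of the span nearer to the start site.

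Grik3 encodes GluK3, the subunit of lowest agonist sensitivity in the family. It lies at chr4:125490259-125714173 (gene ID 14807, 224 kb) on the plus strand. Its 2 shared regions were neighbors, 61.1 and 63.2 kb after the start site, in a stretch that also holds the long noncoding RNA gene Gm32807. The region in all 3 lists, chr4:125553433-125554294, had folds of 5.28, 8.37 and 8.34, with 25.8%, 9.27% and 3.99% of peaks above it. The region beside it, chr4:125551534-125552054, had 4.22 in replicate 1 and 5.45 in replicate 3 and no peak in replicate 2, the longest list. Outside these, 8 of the 9 regions in a single list came from replicate 2, among them the promoter peak printed above.

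Grik4 encodes GluK4, a high-affinity subunit known for its strong expression in CA3 and the dentate gyrus. The gene lies at chr9:42518182-42945000 (gene ID 110637, 427 kb) on the minus strand. It held 21 shared regions, against 9 at Grik2, the next highest. Without kainic acid replicate 2 it was 7 against 6 at Grik2, and without replicate 3 it was 7 at both genes. All 21 lay inside the gene span, spaced by a median of 14.3 kb between summits, and the widest gap was 53.2 kb. None lay within 10 kb of the start site: the nearest was 26.3 kb after it. No gene other than Grik4 overlapped any of the 46 Grik4 regions.

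Of the 21, 7 were in all 3 lists. The strongest was chr9:42642451-42643351, 301 kb after the start site, with folds of 7.78, 13.8 and 6.79 and 5.58%, 1.74% and 8.85% of peaks above it. Its mean rank, 5.39% ± 3.56 (SD, n = 3), was the best of the 37 shared regions of the family. The region chr9:42896621-42898074, 47.0 kb after the start site, had folds of 4.79, 11.5 and 7.19, and chr9:42626419-42627815 had 4.63, 10.0 and 8.01. Both were among the 10% of highest fold in replicates 2 and 3 but not of replicate 1, where 37.8% and 41.7% of peaks were above them.

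Of the other 4, the region nearest the start site, chr9:42917532-42918466, had folds of 4.00, 9.03 and 5.76. At chr9:42846455-42847470 they were 3.84, 9.18 and 6.16, and at chr9:42858945-42859640 they were 3.78, 6.48 and 5.96. The region chr9:42729027-42729652 was the weakest of the 7, with 3.78, 4.58 and 3.96. Replicate 1 gave the lowest rank of the 3 lists in 6 of these 7 regions, and in 67.2% of the 11937 regions of the genome that were in all 3 lists. The other 14 shared Grik4 regions were called in replicates 2 and 3 and not in replicate 1. Replicate 1 thus had a peak in 33.3% of the shared Grik4 regions, against 51.1% of all 26862 shared regions in the genome and 77.8% at Grik2.

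Grik5 encodes GluK5, the high-affinity subunit found most widely with GluK2 in brain. It is the shortest member, at chr7:25009849-25075694 (gene ID 14809, 65.8 kb), on the minus strand. Its 3 shared regions were all in 3 lists. The highest ranked, chr7:25047194-25047975, lay 24.9 kb after the start site, with folds of 4.56, 12.1 and 4.97. In replicate 2 only 2.71% of peaks had a higher fold, against 43.1% and 26.0% in replicates 1 and 3. The region chr7:25073887-25074419 lay 1.77 kb before the RefSeq start site but inside the gene span, with folds of 4.3, 6.92 and 6.03. It was the shared region nearest to any start site of the family. The third, chr7:25007894-25009100, lay 1.26 kb beyond the low-coordinate end of the span, with 3.45, 6.02 and 4.33. All 6 regions in a single list came from replicate 2.

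Both saline peaks were in saline replicate 2. The peak at Grik4, chr9:42897390-42897736, fell in the region 47.0 kb after the start site that all 3 kainic acid lists also held. Its fold was 3.61, and 76.8% of the peaks of that list had a higher one. The peak near Grik5, chr7:25003916-25004170 with a fold of 4.62, overlapped no kainic acid peak. It lay 5.82 kb beyond the low-coordinate end of Grik5. A saline peak within 10 kb, found at 2 of the 5 members, was found at 17.0% of all protein-coding genes and 22.1% of those of 100 kb or longer.

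**Figure D3:**
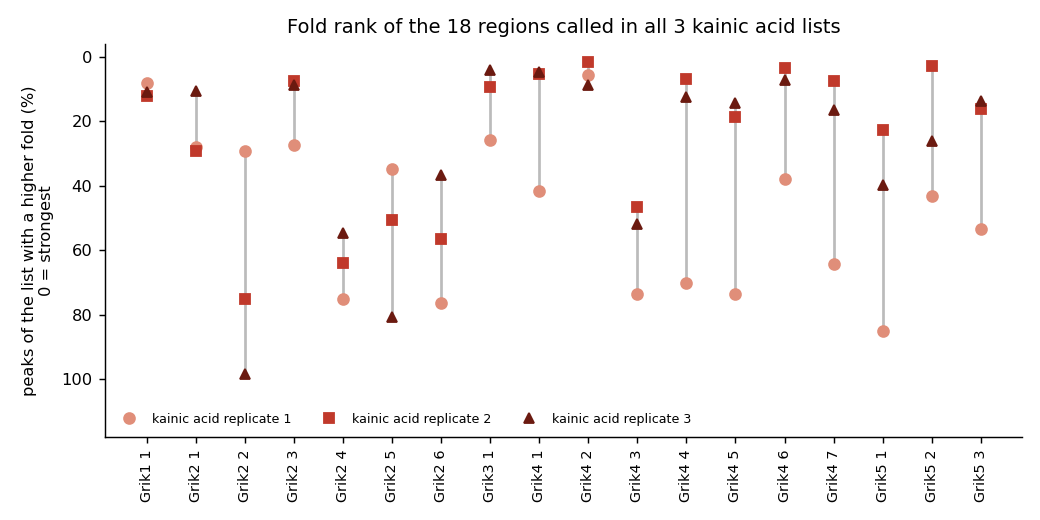
Percent of the peaks of each kainic acid list with a higher fold (0 is the strongest, axis inverted) for the 18 regions in all 3 lists, numbered along each gene from its low-coordinate end, with a grey line from the best to the worst list. The Grik1 region and the second Grik4 region lie near the top in all 3 lists, while most others span over 20 percentage points.

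As a set, the regions of the family were of ordinary strength. The 37 shared regions had a median rank of 46.3% of peaks with a higher fold, against 41.9% for all 26862 in the genome. The 18 in all 3 lists had 28.6%, against 30.1% for all 11937. Their median width was 882 bp, against 844 bp. Of the single peaks, 2 of 24, 9 of 79 and 5 of 44 in replicates 1, 2 and 3 were among the 10% with the highest fold.

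The order of the genes changed with the library. Grik4 had 0.7 times as many peaks as Grik2 in kainic acid replicate 1, 3.46 times in replicate 2 and 2.50 times in replicate 3. Grik2 took 0.0666% of the peaks of replicate 1 (95% Clopper-Pearson interval 0.0320 to 0.122), 0.0206% of those of replicate 2 (0.0110 to 0.0352) and 0.0337% of those of replicate 3 (0.0162 to 0.0620). Grik4 took 0.0466% (0.0188 to 0.0961), 0.0712% (0.0519 to 0.0953) and 0.0843% (0.0546 to 0.124). The intervals of Grik2 and Grik4 overlapped in replicates 1 and 3 and did not in replicate 2. When each list was limited to its 15009 peaks of highest −log10 p, the length of the shortest, Grik2 had 10, 1 and 5 peaks and Grik4 had 7, 13 and 10. In the lists as deposited, Grik2 had 10, 13 and 10 peaks. The contrast of 10 peaks in replicate 1 with 1 in replicate 2 thus appeared only at equal length. Grik5 then had 3 in each list, and Grik1 and Grik3 had 1 or 2.

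**Figure D4:**
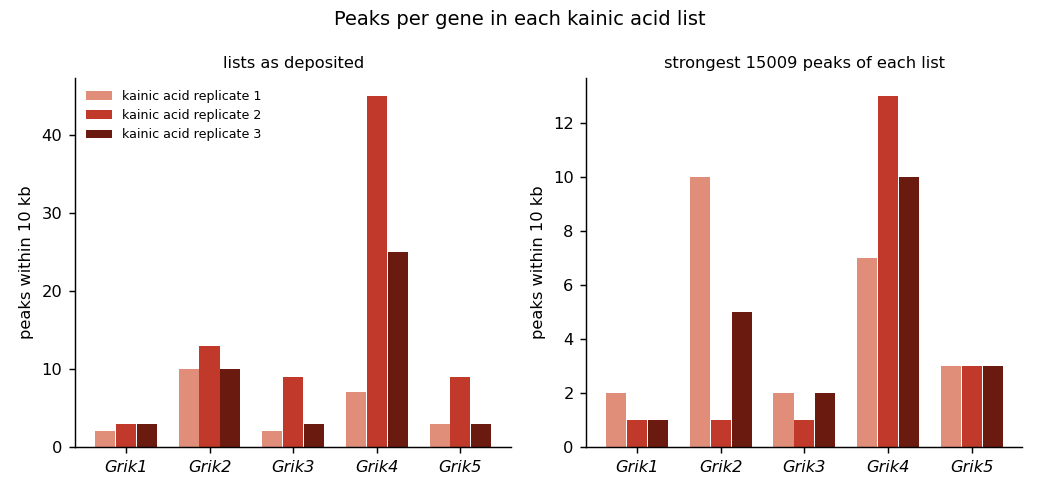
Number of peaks within 10 kb of each gene in the 3 kainic acid lists as deposited (left) and limited to the 15009 peaks of highest −log10 p in each list (right); the vertical axes differ. Grik4 falls from 45 to 13 peaks in replicate 2 on the right, and Grik2 from 13 to 1, while replicate 1 stays at 7 and 10.

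Counts were then set per 100 kb of window, since the genes differ more than 10-fold in length. Shared regions per 100 kb were 0.482 at Grik1, 1.26 at Grik2, 0.820 at Grik3, 4.70 at Grik4 and 3.49 at Grik5. The median of genes of 100 kb or longer was 1.21 and their 90th percentile 4.41. By this density Grik1, Grik3, Grik2 and Grik4 were above 25.8%, 41.6%, 51.0% and 91.3% of such genes. Grik5, below 100 kb, was above 83.5% of all protein-coding genes. In peaks per 100 kb, the mean over the kainic acid lists was 0.643 ± 0.139 at Grik1, 1.54 ± 0.242 at Grik2, 1.91 ± 1.55 at Grik3, 5.74 ± 4.25 at Grik4 and 5.82 ± 4.04 at Grik5 (SD, n = 3). Grik1 lay below Grik2 by more than their spread, whereas Grik2 and Grik3, and Grik4 and Grik5, were not separated. In each list taken alone, Grik4 was above 77.4%, 90.8% and 92.5% of genes of 100 kb or longer in replicates 1, 2 and 3, and Grik1 above 40.2%, 16.3% and 33.8%. When replicate 2 or replicate 3 was left out, the shared regions of Grik4 fell from 21 to 7, or 1.57 per 100 kb. Those of Grik2 fell from 9 to 6 without replicate 2 and to 7 without replicate 3. The median and 90th percentile above use all 3 lists and were not computed again with a list left out. The 1.57 therefore cannot be set against them.

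**Figure D5:**
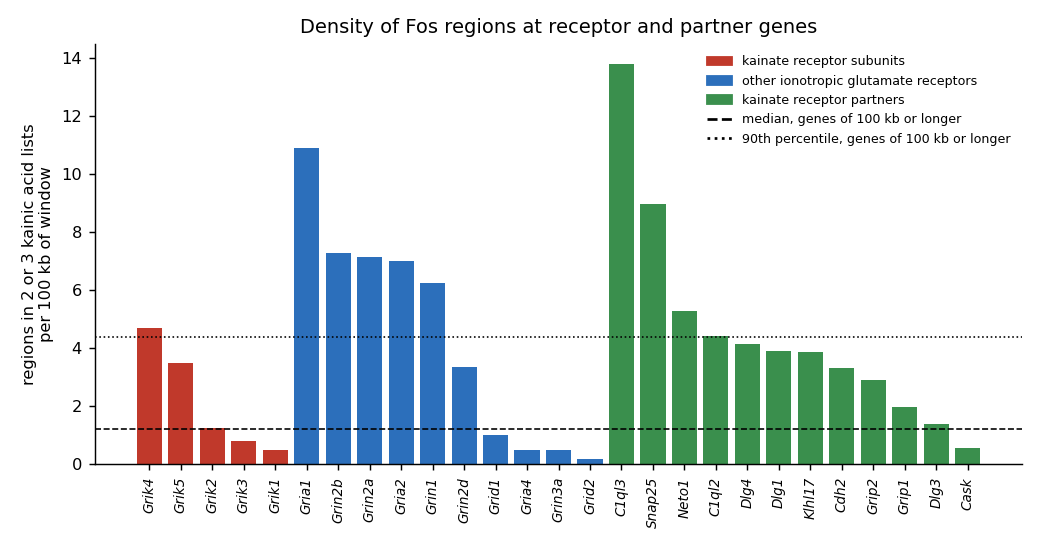
Regions in at least 2 kainic acid lists per 100 kb of window for the kainate receptor genes (red), the other ionotropic glutamate receptor genes (blue) and kainate receptor partner genes (green), with the median (1.21, dashed) and 90th percentile (4.41, dotted) of protein-coding genes of 100 kb or longer; genes without such a region are not drawn. Grik4 is the only kainate receptor gene above the dotted line, and 5 of the other receptor genes exceed it.

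The nearest relatives of the family are the genes of AMPA, NMDA and delta receptors. Of these 13 genes, 10 (76.9%) had a shared region within 10 kb. The share was 40.0% of all protein-coding genes and 81.6% of those of 100 kb or longer, to which 9 of the 13 belong. Their median was 1.02 shared regions per 100 kb, against 1.26 for the 5 kainate receptor genes. The median was 0 for all protein-coding genes and 1.21 for those of 100 kb or longer. Over the summed windows the order of the 2 families was the other way. The relatives had 133 regions at 2.81 per 100 kb, and the kainate receptor genes 37 at 1.94. All protein-coding genes had 1.58 and those of 100 kb or longer 1.70. The densest of the 13 was Gria1, encoding the AMPA receptor subunit GluA1, with 37 regions and 10.9 per 100 kb. The NMDA receptor genes Grin2b (7.29) and Grin2a (7.14) came next. With Gria2 and Grin1 (6.25), 5 of the 13 were denser than Grik4, at 4.70. Gria3, Grin2c and Grin3b had none. Kainate receptor genes thus lay inside the range of their relatives, and no test was made over genes.

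Partners of kainate receptors gave 12 of 15 genes with a shared region (80.0%), against 40.0% of all protein-coding genes and 81.6% of those of 100 kb or longer, to which 5 of the 15 belong. Their median was 3.33 per 100 kb, and 2.72 over their summed windows. The auxiliary subunit genes, whose products change the channel's desensitization, differed. Neto1 had 7 shared regions, 5 of them in all 3 lists. Neto2 had none, with 0, 1 and 0 peaks in kainic acid replicates 1, 2 and 3. Neto1 had 7, 9 and 9 peaks in these lists and none after saline. The densest partners were C1ql3 (13.8 per 100 kb), whose secreted product recruits kainate receptors at mossy fiber synapses, Snap25 (8.99), a vesicle fusion protein, and Neto1 (5.31). Pick1, a scaffold that binds receptor tails, also had no shared region, with 0, 2 and 0 peaks in the kainic acid lists. C1ql3 and C1ql2 are short, at 8.98 and 2.59 kb, so most of their windows lies outside the gene: C1ql3 rests on 4 regions and C1ql2 on 1.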

How the data were processed

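Fos ChIP-seq peak lists of 3 saline and 3 kainic acid libraries of mouse hippocampus were used, 1 list per library, none pooled. The submitters' processing notes name Trim Galore 0.6.4, Bowtie2 2.3.4.3, MACS2, deepTools 3.5.0 and the build mm10. The control library and the peak threshold are not given in the sources used here. In each deposited list the fold is the authors' linear ratio of a peak to its local background, the −log10 p and −log10 q are those of that library, and the deposited score is 10 times the −log10 q, rounded down. None is scaled between libraries, so folds were ranked within a list. The lowest −log10 q was 1.38, 1.35 and 1.35 in kainic acid replicates 1, 2 and 3, so a missing peak is one not called.

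Gene spans and promoters came from RefSeq tables of GRCm38.p6. All 5 members matched by symbol in the gene table, and 4 had a promoter entry. Peaks and merged regions were counted where they overlapped a gene span extended by 10 kb. Counting and merging were checked on simulated lists and returned 5000 of 5000 regions and 1201 of 1201 gene counts. The simulated regions were well separated, so the merging of adjoining or split peaks was not checked. Numbers were compared as log10(n + 1) with an exact permutation test (Python 3.11.15, scipy 1.17.1). Named regions were those in all 3 kainic acid lists, the best ranked of each gene and all saline peaks. Of partners and other receptors, the 3 densest and those without regions were named, with Neto1 and Neto2. Some genes that this rule selects are not reported here. The members and lists were chosen with earlier results of these data known. Alternatives covered the threshold, the reach, the overlap, list length and leaving out each library.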

Additional observations from a re-analysis of the deposited data

How the results depend on the processing

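Since saline replicates 1 and 3 hold 7 and 2 peaks, the sign of the difference in log10(number + 1) is nearly fixed by the list lengths, and its persistence shows no stability. For peaks with −log10 q from 10 upward, the difference was 0.30, 0.32, 0.26, 0.80 and 0.30 at Grik1 to Grik5, and the groups then overlapped at Grik2, Grik3 and Grik5 (exact permutation p = 0.4). With 3 libraries against 3, no p can pass 0.05, and none bears on stability. With the replicate block the differences were the same (1.23 at Grik4), and an exact permutation of signs gave p = 0.25, its minimum with 3 pairs. No label ties a replicate number to a common day or litter, and the correlations of same-numbered libraries over genes (0.281, 0.275 and 0.0414) are set by saline replicate 2, so the numbers were not treated as pairs.

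Shared regions moved most with the threshold and the number of lists. With −log10 q of at least 5, Grik1 had 1 and Grik4 13. With at least 10, Grik1 to Grik5 had 1, 2, 1, 7 and 1. In all 3 lists, Grik1 had 1, Grik3 1 and Grik4 7. In any list, Grik2 had 16, Grik3 11, Grik4 46 and Grik5 9. With equal list lengths, Grik1 had 1, Grik2 4 and Grik4 8. With a reach of 50 kb, Grik5 had 5. Leaving out 1 library gave 1 to 2 at Grik1 and at Grik3 and 7 to 21 at Grik4. Grik1 lost a region without kainic acid replicate 3, Grik3 without replicate 1 or 3, and Grik4 kept 7 without replicate 2 or 3. Without replicate 2, chr16:87915249-87915675 at Grik1 was lost too. The Grik1 count stayed at 2 only because its other region then split into 2. These falls follow from using fewer peaks or lists. Per 100 kb, requiring all 3 lists gave 0.241 at Grik1, 0.410 at Grik3 and 1.57 at Grik4, and −log10 q of at least 10 gave 0.241, 0.279, 0.410, 1.57 and 1.16 at Grik1 to Grik5. The density order of Grik4 and Grik5 thus turned when all 3 lists were required, with 3.49 at Grik5. The saline replicate 2 share was 0% with −log10 q of at least 5. Ranked by −log10 q, the Grik1 region stood at 12.7% in place of 10.4%. Of 156 alternative values, 33 moved beyond their limit and 0 reversed. The limit was a factor of 1.5 for region numbers and densities, and the SD or interval of the main value for ranks and shares. Only the difference in log10(number + 1) could reverse, and its sign was nearly fixed, so the lack of reversals shows no stability.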
